A study of Homo sapiens with 6 samples.

Results

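The ligand FGF2, the FGF receptors FGFR1, FGFR2, FGFR3 and FGFR4, and the inhibitors SPRY1, SPRY2, SPRY4, SPRED1 and SPRED2 were followed in 2 human ovarian cancer cell lines, SKOV3 and A2780s. All non-control probes whose gene name in the scanner output is one of these 10 genes were taken, which gave 21 of the 41000 probes of the Agilent Whole Human Genome array. The study asked how gene expression changes when Hic-5, a focal adhesion scaffold protein encoded by TGFB1I1, is suppressed or overexpressed. Each of 6 arrays read a modified clone and its Ctrl clone together, one in the dye Cy3 and the other in Cy5, and every pair of RNAs was hybridized a second time with the dyes exchanged.

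The 4 SKOV3 arrays set 2 clones with shRNA against Hic-5, named sh-S1 and sh-S2, beside a Ctrl clone. All 3 carried the lentiviral pLKO.1-puro vector and had been selected with puromycin, and the Ctrl insert was a scramble sequence with no mammalian match. The 2 A2780s arrays compared the clone pCMV-Hic-5, stably transfected with tagged human Hic-5 in the pCMV6 vector, with a Ctrl clone carrying empty pCMV6, both selected with neomycin. Every group was a clonal line represented by 1 RNA, and A2780s has no replicate. The SKOV3 p-values and intervals draw on the spread between sh-S1 and sh-S2 and on a spread pooled over all tested probes. Both clones were set against a single Ctrl RNA. The labels give 2 target sites in the Hic-5 mRNA for the shRNAs and do not say which clone carries which, and they are shown because the SKOV3 comparison rests on them.
Hic-5 shRNA target 1: cagttcaacatcacagatgaa
Hic-5 shRNA target 2: cggttgcttcaggaacttaat

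Fibroblast growth factors bind receptor tyrosine kinases together with heparan sulfate on the cell surface, and the activated receptor signals through docking proteins to RAS and the ERK kinases. ERK signalling induces its own inhibitors, among them the Sprouty proteins, which act between receptor and RAS, and phosphatases of the DUSP family. SPRED proteins are related to the Sproutys and restrain RAS through neurofibromin.

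Ratios are given as log2 of modified clone over Ctrl, after background correction and normalization within each array. Levels are log2 intensities of 1 RNA in 1 dye after normalization across arrays, and they are compared for a probe with itself, never between probes. In SKOV3 a probe was called at a limma adjusted p of at most 0.05 and at least 2-fold, with 2 clones as replicates. In A2780s, with no test, it was called when the mean of both arrays reached 1.5-fold and both pointed the same way. Cy5 was dim on the SKOV3 slide, with a median intensity above background of 9.52 to 25.45 against 373.4 to 530.5 in Cy3 and 325.2 to 568.2 in either dye on the A2780s slide. The cell lines were hybridized on different slides, so the line and its slide cannot be told apart, and levels set between the lines are descriptions.

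The TGFB1I1 probe of the array did not show the knockdown named in the SKOV3 labels. Its log2 ratio was -0.16 and 0.12 on the sh-S1 arrays and -0.12 and 0.28 on the sh-S2 arrays, with a mean of 0.03 (95% interval -0.20 to 0.26, limma adjusted p = 0.855). Its level was 7.78 to 8.55 in the 4 readings of the SKOV3 Ctrl and 8.05 to 8.67 in the 4 readings of the sh RNAs, which overlap, so the knockdown was not visible in this probe. The paper says that the knockdown clones were picked for low Hic-5 by Western blot, quantitative RT-PCR and semi-quantitative PCR. It also reports very low Hic-5 staining in tumors grown from sh-S1 cells. The paper adds qPCR of genes picked from the arrays in both lines, and reports similar patterns by both methods. None of these measurements was analysed here. In A2780s the ratio of TGFB1I1 was 4.05 and 2.60, with levels of 11.96 and 13.80 in the Ctrl and 16.40 and 16.02 in pCMV-Hic-5. These RNAs, labelled sh-S1 and sh-S2, also differed from the SKOV3 Ctrl in markers of the line. ERBB2, which is amplified in SKOV3, and the keratins KRT7, KRT8, KRT18 and KRT19 were called lower in 5 of 5 cases, with a median log2 ratio of -2.28. Each gene was read by its brightest probe, and 4.16% of all 24955 tested probes were called lower. A dimmer ERBB2 probe, A_24_P284420, differed little, with mean levels of 7.46 in the SKOV3 Ctrl, 7.43 in sh-S1 and 7.31 in sh-S2. The summed level of 4 of these markers, KRT19 left out for a missing spot, was 15.21 to 15.74 in the SKOV3 Ctrl, 12.42 to 13.09 in the sh RNAs, and 11.34 to 11.68 in the A2780s Ctrl. These are bulk RNAs, in which fewer cells of a type and less RNA per cell cannot be told apart.

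PAX8, a transcription factor of the Müllerian epithelium, stood at 13.47 to 14.03 in the SKOV3 Ctrl, at 9.81 to 10.63 in the sh RNAs and at 8.83 to 8.90 in the A2780s Ctrl. WT1 was not called and EMX2 did not pass the filter on dim probes. PTPRC and PECAM1, markers of leukocytes and endothelium, did not pass it either, and the fibroblast collagens COL1A1 and COL1A2 were not called. The summed level of those 4 markers of other cell types was 9.19 to 9.31 in the SKOV3 Ctrl and 9.24 to 9.29 in the sh RNAs. Over 38728 probes read in Cy3, the level of sh-S1 correlated with the SKOV3 Ctrl at r = 0.934 and 0.936 and with the A2780s Ctrl at 0.951, and for sh-S2 the values were 0.927, 0.930 and 0.963, where the points share slide and dye brightness with some partners and not with others. Each SKOV3 result below sets these RNAs against the Ctrl as labelled, and the part of this departure from the labels in them was not tested.

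**Figure D1:**
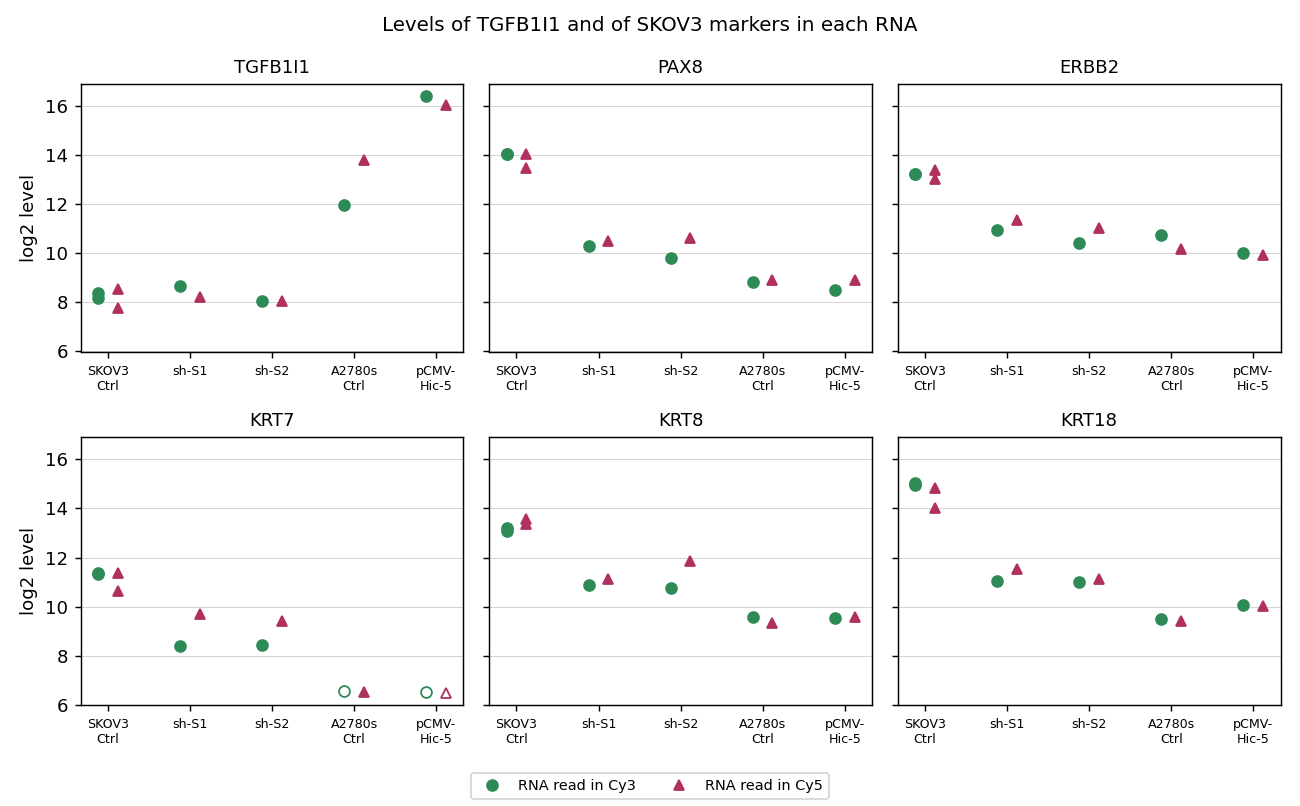
Each panel plots the log2 level of 1 gene (y axis) in the 5 RNAs (x axis), read in Cy3 (green circles) or Cy5 (purple triangles), with open symbols for readings not well above background. TGFB1I1 overlaps between the SKOV3 Ctrl and the sh-S1 and sh-S2 RNAs as labelled, whereas PAX8, ERBB2 and the keratins lie lower in those RNAs than in the SKOV3 Ctrl.

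The inhibitors SPRY1, SPRY2 and SPRY4 were higher and the ligand FGF2 was lower in the RNAs labelled sh-S1 or sh-S2. The 250 bases upstream of a transcription start of these 4 genes are shown (RefSeq, GRCh38.p14), since they carried the called changes of the family. Only the first listed start of each gene was taken, so a window need not stand for any other start. A promoter was given for 9 of the 10 members. Capitals mark CCGGAA, the core that ETS factors such as those downstream of ERK recognise. Searched on both strands were CCGGAA, found in 14.5% of 35116 promoters of this length, the cAMP response element TGACGTCA (1.65%), the AP-1 site TGAGTCA (4.2%) and TATAAA (3763 promoters), none of which overlapped in the windows shown. Only the SPRY2 window held any of these letters, 1 CCGGAA.
FGF2, chr4:122826581-122826830, plus strand: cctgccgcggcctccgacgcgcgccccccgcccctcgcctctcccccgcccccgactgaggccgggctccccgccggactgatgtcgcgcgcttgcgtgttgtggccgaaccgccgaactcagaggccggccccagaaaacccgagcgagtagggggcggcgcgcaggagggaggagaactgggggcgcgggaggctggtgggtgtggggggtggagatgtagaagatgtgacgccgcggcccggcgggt
SPRY1, chr4:123396545-123396794, plus strand: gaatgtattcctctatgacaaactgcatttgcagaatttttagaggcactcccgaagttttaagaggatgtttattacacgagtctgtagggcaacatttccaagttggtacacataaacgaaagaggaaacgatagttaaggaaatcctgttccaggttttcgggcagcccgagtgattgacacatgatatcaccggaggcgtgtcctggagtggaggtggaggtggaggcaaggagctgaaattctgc
SPRY2, chr13:80341127-80341376, minus strand: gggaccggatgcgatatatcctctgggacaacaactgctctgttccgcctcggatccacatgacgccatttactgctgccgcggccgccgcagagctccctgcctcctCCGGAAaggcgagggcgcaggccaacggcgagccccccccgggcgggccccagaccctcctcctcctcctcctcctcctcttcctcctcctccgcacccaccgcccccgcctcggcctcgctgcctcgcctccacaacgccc
SPRY4, chr5:142324248-142324497, minus strand: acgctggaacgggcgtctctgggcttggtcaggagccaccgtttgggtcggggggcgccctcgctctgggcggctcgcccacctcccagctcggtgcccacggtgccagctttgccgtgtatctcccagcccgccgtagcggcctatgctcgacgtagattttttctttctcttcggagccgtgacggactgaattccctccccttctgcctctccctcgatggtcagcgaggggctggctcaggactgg

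The windows differed in base composition. CpG dinucleotides numbered 33 before FGF2, 23 before SPRY2 and 22 before SPRY4, against 8 before SPRY1, whose window had 45.6% G and C. The other 3 windows had 75.2%, 70.4% and 65.6%.

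FGF2, the only ligand among the members, fell 3.56-fold in the RNAs labelled sh-S1 or sh-S2. Its probe, at chr4:123819022-123819081 on the plus strand of hg19, is printed at 10 spots of each array. The log2 ratio for sh-S1 was -1.31 when the clone was in Cy5 and -2.03 when it was in Cy3. For sh-S2 the values were -1.45 and -2.55. All 4 arrays were below 0, and both clones were further below it in Cy3 than in Cy5. The mean was -1.83 (SE 0.11, 95% interval -2.10 to -1.56, limma adjusted p = 6.29e-05, n = 2 clones). The size depended on the processing, since the mean was -2.39 with the deposited log10 ratios and -2.36 from Cy3 levels alone, both below that interval. Within an array the spots of FGF2 scattered with an SD of 0.07 to 0.26 over 8 to 10 spots on the SKOV3 slide. These spots are repeat prints read from 1 hybridization and are not replicates of a clone.

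The intensity of FGF2 above background in Cy3 was 5749 and 5155 in the SKOV3 Ctrl, 839.3 in sh-S1 and 837.3 in sh-S2. In the A2780s Ctrl it was 873 and in pCMV-Hic-5 it was 1035. On the normalized scale the 4 readings of the SKOV3 Ctrl spanned 10.95 to 11.08. The sh RNAs read 8.92 and 8.5 in Cy3 and 9.77 and 9.62 in Cy5, and the A2780s RNAs 8.88 to 8.96 in either dye. The SKOV3 Ctrl was thus the highest RNA in both dyes and overlapped none of the others. In Cy3 the order below it was pCMV-Hic-5, sh-S1, A2780s Ctrl and sh-S2, of which sh-S1 lay between the A2780s RNAs. In A2780s the ratio of FGF2 was 0.00 and 0.08, short of 1.5-fold.

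The receptors differed little, and no receptor probe was called in either cell line. The paper's network for the knockdown places FGF2 and FGFR among the downregulated genes and their partners. Its text does not say which receptor is meant or whether FGFR was itself measured as lower. Of 13 receptor probes 6 were tested in SKOV3, with mean log2 ratios of -0.43 to 0.17, and 1 of these passed the adjusted p but did not reach 2-fold. The deposited log10 ratios gave -0.92 for the FGFR1 probe A_23_P372923, 0.65 for FGFR4, 0.46 for FGFR3 and 0.43 for the FGFR1 probe A_24_P4171. They gave -0.19 for FGFR2 and 0.00 for the FGFR1 probe A_23_P301304, so none reached 2-fold. FGFR1 is read by 6 probes and is the receptor most often paired with FGF2. Its probe A_23_P301304, the brightest, gave 0.02 and -0.32 for sh-S1 and 0.19 and -0.16 for sh-S2, with a mean of -0.07 (95% interval -0.30 to 0.17, limma adjusted p = 0.679). Its level was 10.12 to 10.89 in the SKOV3 Ctrl and 10.30 to 10.73 in all other RNAs, so the 5 RNAs overlapped.

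A second FGFR1 probe, A_23_P372923, departed from the first. It gave -0.36 and -0.24 for sh-S1 and -0.50 and -0.61 for sh-S2, all below 0, with a mean of -0.43 (95% interval -0.68 to -0.18, limma adjusted p = 0.0214), short of the 2-fold threshold. Both sh RNAs passed as well above background for it in Cy3 and not in Cy5. The probe thus entered the test through the Ctrl alone, where it was higher. In A2780s it gave 0.58 and 0.25, the highest mean of the receptor probes there (0.41). FGFR1 lies on the minus strand and this probe has the highest coordinate of the 6, so it is the one nearest the 5′ end. Probe A_24_P4171 had a mean of -0.01 (95% interval -0.25 to 0.23), and the other 3 did not pass the filter in SKOV3.

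FGFR2, whose splice forms divide epithelial from mesenchymal FGF binding, was tested through A_23_P202334 alone. It gave 0.23 and 0.06 for sh-S1 and 0.00 and -0.92 for sh-S2, with a mean of -0.16 (95% interval -0.52 to 0.20, limma adjusted p = 0.499). The sh-S2 array in Cy3 stood apart from the other 3. FGFR3 read 0.30, 0.27, 0.32 and -0.20 on the same arrays (mean 0.17, 95% interval -0.07 to 0.42) and -0.45 and -0.14 in A2780s. For FGFR4 the SKOV3 arrays gave 0.10, -0.01, 0.12 and 0.18, with a mean of 0.10 (95% interval -0.13 to 0.32), and the A2780s arrays 0.23 and 0.16. For the tested FGFR2, FGFR3 and FGFR4 probes the intervals lay within 2-fold in either direction.

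SPRY2 had the largest ratio of the members. Its probe lies at chr13:80910622-80910681 (hg19, minus strand). The ratio was 2.91 and 3.44 for sh-S1 and 3.19 and 3.60 for sh-S2, with the clone in Cy5 and Cy3 in turn, so all 4 arrays were high. The mean of 3.28 is a 9.73-fold rise (SE 0.10, 95% interval 3.04 to 3.53, limma adjusted p = 4.91e-06). The size depended on the processing, since the mean was 4.44 with the deposited log10 ratios and 4.11 from Cy3 levels alone, both above that interval. Its intensity in Cy3 was 1037 and 879.9 in the SKOV3 Ctrl, 11280 in sh-S1, 19040 in sh-S2, 20080 in the A2780s Ctrl and 33400 in pCMV-Hic-5.

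On the normalized scale SPRY2 stood at 8.58 to 9.29 in the SKOV3 Ctrl, 11.57 to 12.89 in the sh RNAs, 12.62 and 12.76 in the A2780s Ctrl and 13.30 to 13.33 in pCMV-Hic-5. The SKOV3 Ctrl and pCMV-Hic-5 did not overlap any other RNA, while the sh RNAs and the A2780s Ctrl overlapped. In A2780s the ratio was 0.68 and 0.56. Their mean of 0.62, or 1.54-fold, made SPRY2 the only member called there, just past the 1.5-fold threshold. The call was lost with the deposited log10 ratios, which gave 0.57, and with the clone in Cy3 alone, at 0.56.

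SPRY1 rose 4.42-fold. Its probe at chr4:124324494-124324553 (hg19, plus strand) lies 505 kb from that of FGF2, which moved the other way. The ratios were 2.51 and 1.78 for sh-S1 and 2.44 and 1.84 for sh-S2, higher in Cy5 than in Cy3 for both. The mean was 2.14 (SE 0.09, 95% interval 1.92 to 2.36, limma adjusted p = 1.41e-05), against 3.00 with the deposited log10 ratios and 3.38 from Cy3 levels alone. Levels were 8.22 to 10.17 in the SKOV3 Ctrl, where the Cy5 readings were the higher ones, 10.73 to 12.01 in the sh RNAs, and 11.42 and 11.54 in the A2780s Ctrl. The SKOV3 Ctrl did not overlap the sh RNAs, and the A2780s Ctrl lay inside their range. In A2780s the ratio was 0.64 and 0.40, with a mean of 0.52 that did not reach 1.5-fold.

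SPRY4 rose 2.23-fold, with a wider spread between dyes. Its probe lies at chr5:141690571-141690630 (hg19, minus strand). With the clone in Cy5 the ratio was 0.59 for sh-S1 and 0.78 for sh-S2, and with the clone in Cy3 it was 1.43 and 1.84. All 4 were above 0, and the mean was 1.16 (SE 0.11, 95% interval 0.90 to 1.42, limma adjusted p = 0.000401). The Ctrl was well above background on 3 of 4 arrays, so the probe entered the test through the clones, where it was high. With the clone in Cy5 alone the mean was 0.68, under 2-fold, whereas the deposited log10 ratios gave 2.67 and Cy3 levels alone 2.33. The Cy3 levels were 7.64 and 7.81 in the SKOV3 Ctrl, 9.82 and 10.28 in the sh RNAs, 9.05 in the A2780s Ctrl and 9.54 in pCMV-Hic-5. In Cy5 the SKOV3 Ctrl read 8.39 and 8.44, between the 8.22 of sh-S1 and the 8.59 of sh-S2. The A2780s ratios were 0.63 and 0.08, so the size rested on 1 array.

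SPRED1 and SPRED2 did not reach 2-fold. With the deposited log10 ratios they had larger means of 0.88 and 0.997, also short of it. SPRED1 (A_24_P107859) gave 0.01 and -0.06 with the clones in Cy5 but 0.83 and 1.05 with the clones in Cy3, with a mean of 0.46 (95% interval 0.23 to 0.68, limma adjusted p = 0.0106). The value came from the Cy3 orientation. SPRED2 (A_32_P225854) gave 0.49 and 0.08 for sh-S1 and 0.66 and 0.26 for sh-S2, with a mean of 0.37 (95% interval 0.14 to 0.61, limma adjusted p = 0.0288). In A2780s SPRED1 read 0.35 and 0.27 and SPRED2 0.05 and -0.01. The second probe of each gene did not pass the filter in SKOV3. In A2780s the second SPRED1 probe, A_23_P54460, gave -0.58 and 0.18 and so disagreed between arrays.

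Over the family, 12 of 21 probes, at least 1 for each member, were bright enough to be tested in SKOV3. Of these 3 were called higher, where 2.98% of 24955 tested probes were, and 1 lower, where 4.16% were. SPRY4, 1 of the 3, was tested only because the clones passed the filter. The median log2 ratio was 0.14 over the 12 and 0.00 over all tested probes. In A2780s 15 of the 21 were measured, with 1 called higher against 3.26% of 30529 probes and 0 called lower against 1.32%, and a median of 0.13 against -0.01. One FGFR1 probe, A_23_P316447, was well above background in no RNA on any array.

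**Figure D2:**
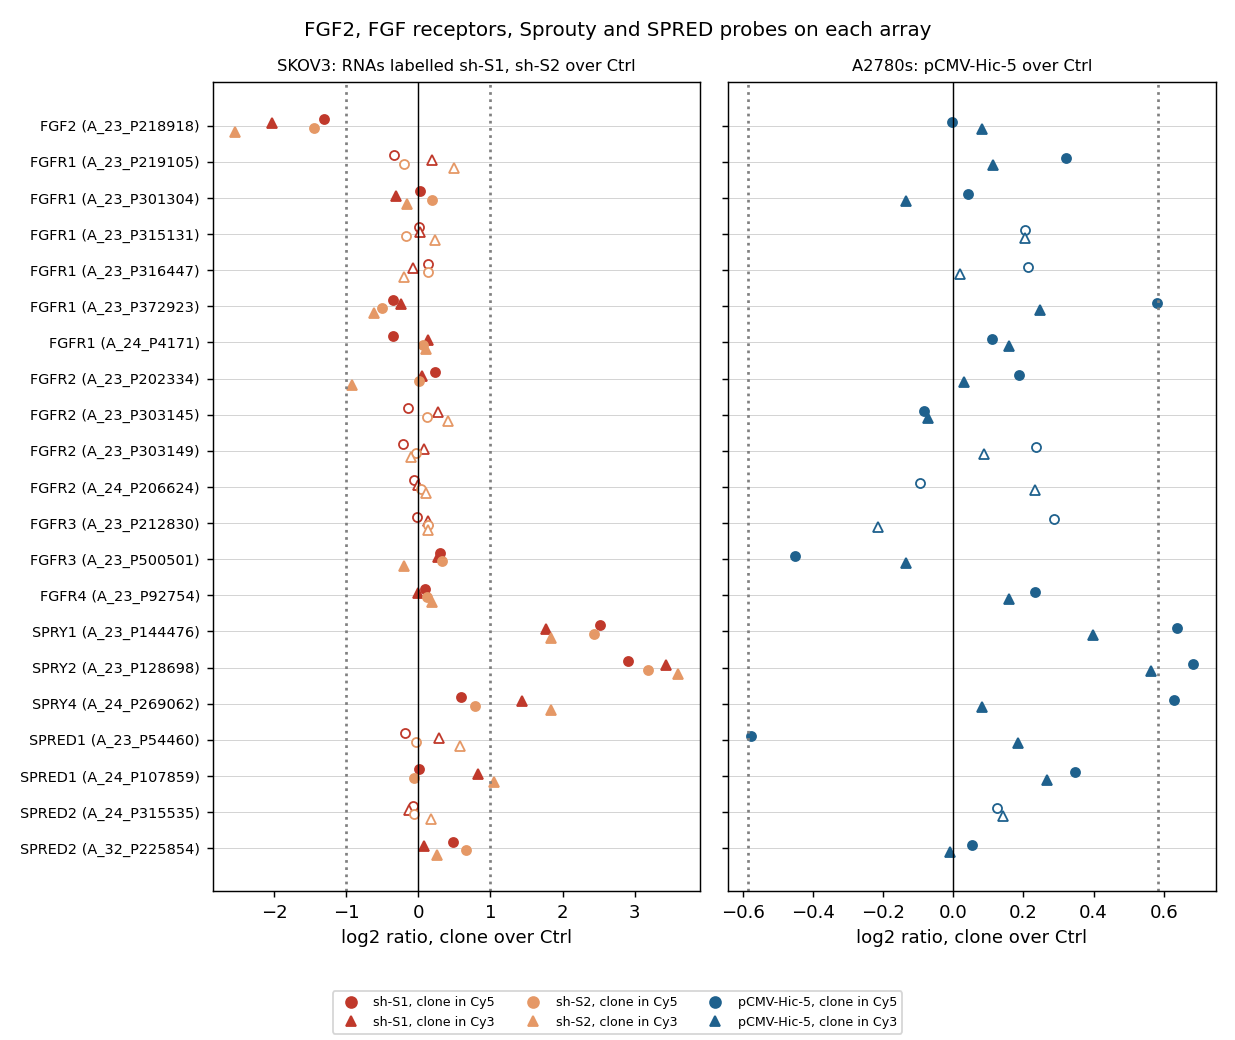
Log2 ratios of modified clone over Ctrl (x axis) are plotted for the 21 probes (y axis) on the SKOV3 arrays (left) and the A2780s arrays (right, on a narrower scale), with circles for the clone in Cy5, triangles for the clone in Cy3, open symbols for probes that did not pass the filter and dotted lines at 2-fold (left) and 1.5-fold (right). FGF2 lies left of the lower line and SPRY1 and SPRY2 right of the upper line on all 4 SKOV3 arrays, while the receptors lie between the lines.

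Set side by side in Cy3, the levels of 7 member probes were at least 2-fold apart between the SKOV3 Ctrl and the A2780s Ctrl. They were FGF2, the FGFR1 probe A_23_P372923, SPRY1, SPRY2, SPRY4 and both SPRED1 probes. For 6 of these 7 the mean of the sh RNAs in Cy3 was nearer to the A2780s Ctrl than to the SKOV3 Ctrl. FGF2 in the sh RNAs was 2.36 below the SKOV3 Ctrl and 0.19 below the A2780s Ctrl. SPRY2 was 4.11 above the former and 0.12 above the latter, and SPRY1 3.38 and 0.22 above. SPRY4 stood 2.33 above the SKOV3 Ctrl and 1.00 above the A2780s Ctrl, so that in Cy3 it was the highest in the sh RNAs. The exception was the dim SPRED1 probe A_23_P54460. TGFB1I1 had the opposite order, 0.09 above the SKOV3 Ctrl and 3.60 below the A2780s Ctrl. The single A2780s Ctrl RNA read 11.96 in Cy3 and 13.80 in Cy5 for this gene, so its readings lay far apart. Both were above the 7.78 to 8.55 of the SKOV3 Ctrl. For the protein the paper reports the reverse order by Western blot, with strong Hic-5 in SKOV3 and rather low Hic-5 in A2780s. The cause of either difference was not tested. In Cy5, the dim dye of the SKOV3 slide, only FGF2, SPRY1 and SPRY2 were still nearer to the A2780s Ctrl. The mean of the sh RNAs for SPRY4, the FGFR1 probe and both SPRED1 probes was then nearer to the SKOV3 Ctrl. In that dye SPRY4 read 8.22 and 8.59 in the sh RNAs, against 9.46 in the A2780s Ctrl and 9.68 in pCMV-Hic-5.

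**Figure D3:**
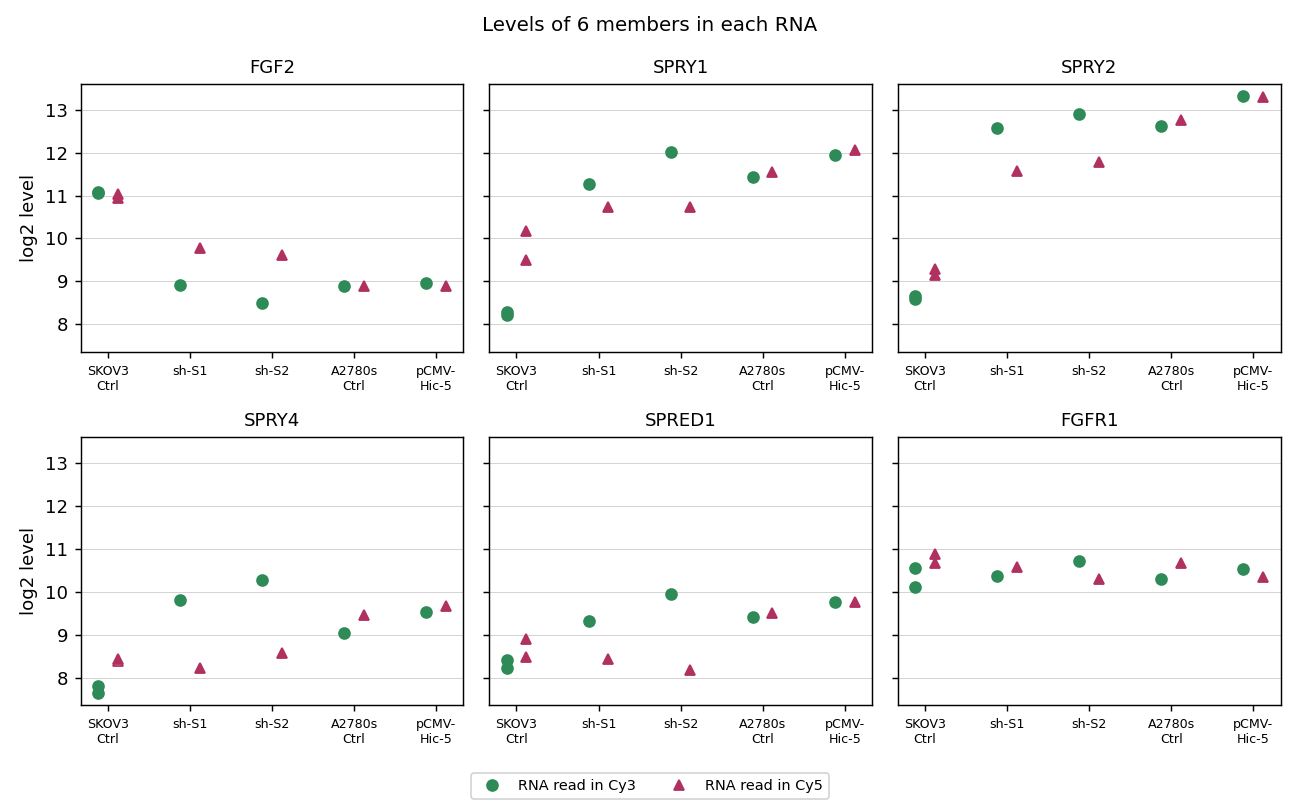
Each panel plots the log2 level of 1 member (y axis) in the 5 RNAs (x axis), read in Cy3 (green circles) or Cy5 (purple triangles), with open symbols for readings not well above background. FGF2 is highest and SPRY1 and SPRY2 are lowest in the SKOV3 Ctrl, whereas FGFR1 (A_23_P301304) overlaps across all RNAs.

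Outside the members, 88 of 89 genes reported here from 6 lists of the FGF and ERK pathway had a probe. In SKOV3 71 were tested, of which 6 were called higher and 6 lower, and in A2780s 76 were measured, of which 5 were called higher and 6 lower. Over all probes 2.98% were called higher and 4.16% lower in SKOV3, and 3.26% and 1.32% in A2780s, and the counts of the single lists below, of 9 to 15 genes each, are descriptions beside these shares. Of 12 other ligands tested, 1 was lower, FGF18, which signals through FGFR3 among others, with ratios of -1.81, -2.13, -2.33 and -3.28 and a mean of -2.39 (limma adjusted p = 0.000175). Averaged over its tested probes it was -1.64, still called. The list's median was -0.10. In A2780s 2 of 15 were called higher, the endocrine ligands FGF21 (1.25 and 1.24) and FGF23 (0.66 and 1.09), which did not pass the filter in SKOV3. FGF23 was not called with normexp fitted on all spots (mean 0.45).

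Among co-receptors and FGF-binding proteins 3 of 14 were called higher in SKOV3 and 1 lower, with a list median of 0.01. The glypicans GPC3 and GPC6, heparan sulfate proteoglycans of the membrane, had mean log2 ratios of 2.57 and 1.12, and GPC6 was not called with median centring (0.97). FGFBP3 had a mean of 1.57 and FGFBP1, which releases FGF2 from the matrix, one of -1.60, each with the same sign on all 4 arrays. None of the 14 was called in A2780s.

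Among 9 tested enzymes that shape heparan sulfate, 1 was called higher and 2 lower in SKOV3, with a list median of -0.21. The 6-O-endosulfatase SULF2 had ratios of -1.62, -0.71, -2.46 and -2.53 and a mean of -1.83, so that sh-S1 and sh-S2 differed in size. The sulfotransferase HS3ST1 gave -0.79, -0.73, -0.83 and -2.07, and its mean of -1.10 reached 2-fold through the sh-S2 array in Cy3. Without sh-S2 it was -0.76, and its probe entered through the Ctrl alone, being well above background on 1 of 2 arrays of each clone. The 2-O-sulfotransferase HS2ST1 was called higher through its brightest probe, A_32_P150928, with a mean of 1.53. Its other 3 probes read 0.22, 0.60 and 0.37 and were not called, nor was the mean over its probes (0.68).

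In A2780s 1 of 9 of these enzymes was called higher and 3 lower, with a median of -0.22. SULF2 gave -0.92 and -0.88. HS6ST2 gave -1.01 and -0.86 through the brighter of its 2 probes and was not called on their mean (-0.50). HS6ST1 gave -1.08 and -0.41, which was short of 1.5-fold in Cy3. The probes of HS2ST1 disagreed in direction. A_32_P150928 was called higher (1.01 and 0.20, mean 0.60), while the other 3 had means of -0.39, -0.49 and -0.07, and the mean over its probes was -0.09.

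Of 11 receptor adaptors tested in SKOV3, 1 was called, SHC1, an adaptor of activated receptors, with ratios of 1.31, 2.04, 1.00 and 1.83 and a mean of 1.55. Its second probe read 0.18, and the mean over both (0.86) was not called. Of the 12 genes of the RAS to ERK cascade reported here, 0 were called by limma, with mean log2 ratios of -0.54 to 0.25. At an unadjusted p under 0.05 there were 4, of which 1 passed the adjusted p. The list medians were 0.01 and -0.12. In A2780s the phosphatase PTPN11 (SHP2) was called lower through its brightest probe (-0.87 and -0.36). The other 3 PTPN11 probes read 0.12, 0.17 and -0.13, and the mean over its probes was -0.12. None of the 12 cascade genes was called there.

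Of 13 other feedback inhibitors and ERK targets tested in SKOV3, 1 was called higher and 2 lower, with a list median of -0.15. DUSP6, a phosphatase that inactivates ERK, gave 3.86, 3.32, 3.33 and 3.47, all high, with a mean of 3.50 (limma adjusted p = 3.54e-06). IER3, an immediate early gene, gave -2.55, -4.27, -2.96 and -4.26, with a mean of -3.51 (limma adjusted p = 3.54e-06). PHLDA1, a growth factor response gene, gave -2.18, -3.08, -2.21 and -4.08 through its brightest probe, while its other 3 probes had means of -1.18, -0.46 and -0.22. In Cy3 DUSP6 stood at 8.45 in the SKOV3 Ctrl, 12.82 and 12.99 in the sh RNAs and 13.31 in the A2780s Ctrl. IER3 stood at 14.02 in the SKOV3 Ctrl, 10.32 and 10.67 in the sh RNAs and 10.07 in the A2780s Ctrl. In both genes the sh RNAs were nearer to the A2780s Ctrl.

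In A2780s 2 of 15 genes of this list were called higher and 2 lower, with a median of -0.34. ETV5, an ETS factor induced by FGF signalling, gave 1.01 and 0.75, and FOSL1, a subunit of AP-1, gave 0.58 and 0.67, a call lost with normexp fitted on all spots (0.38). The immediate early factor EGR1 gave -1.35 and -0.93, and PHLDA1 -1.21 and -0.73. In SKOV3 the ETV5 ratios were 0.91, 0.79, 0.75 and 1.05, with a mean of 0.88 (limma adjusted p = 0.000664) that did not reach 2-fold.

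**Figure D4:**
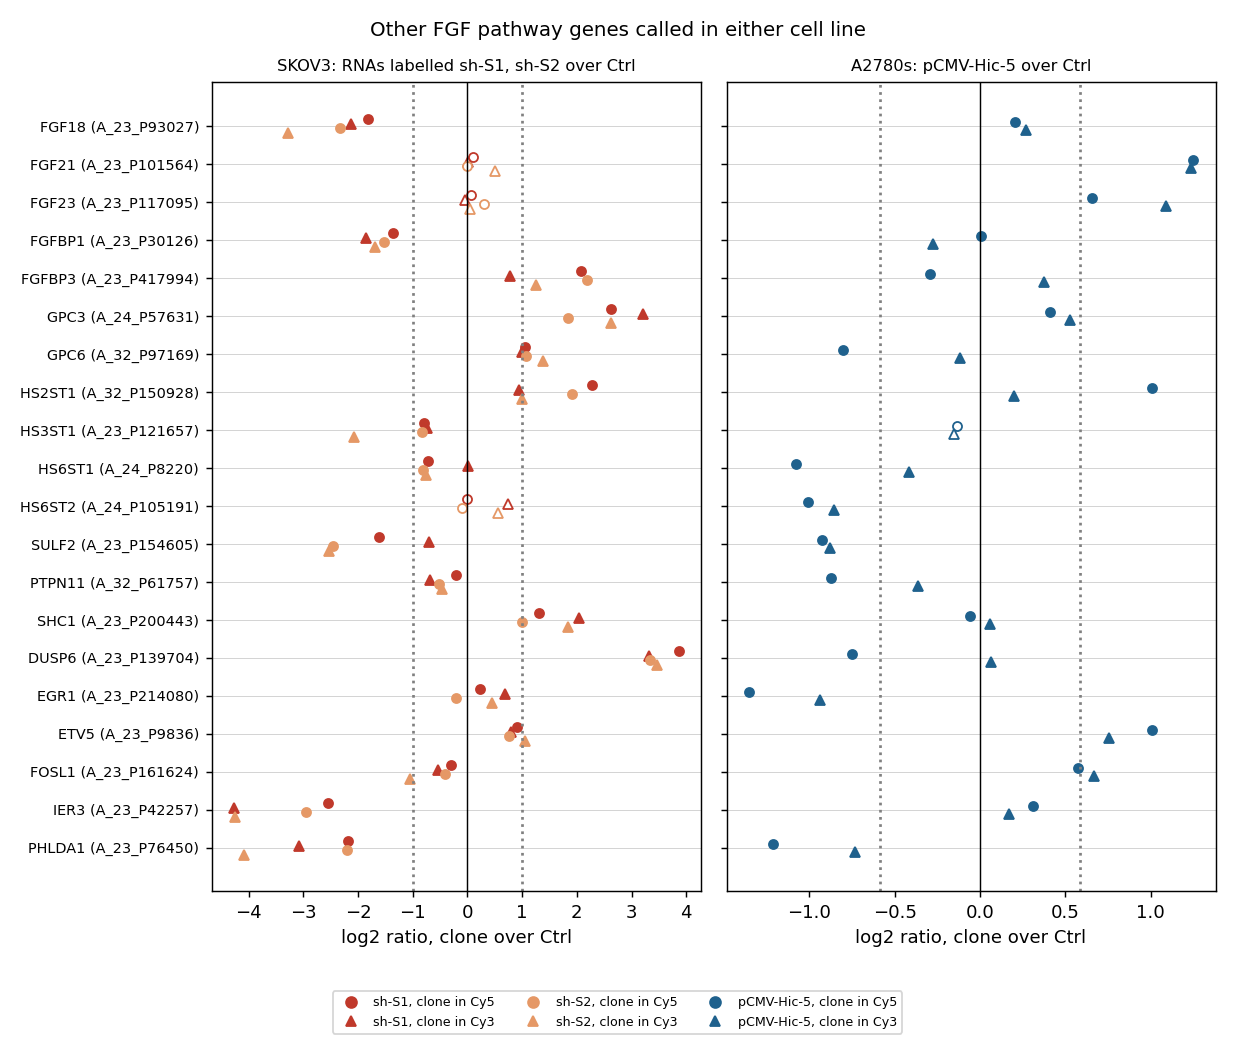
Log2 ratios of modified clone over Ctrl (x axis) are plotted for the 20 pathway genes other than members that were reported here and called in either cell line (y axis), with circles for the clone in Cy5, triangles for the clone in Cy3, open symbols for probes that did not pass the filter and dotted lines at 2-fold (left) and 1.5-fold (right). In SKOV3 (left) DUSP6 lies above 3 and IER3 below -2 on all 4 arrays, whereas in A2780s (right) EGR1 has the lowest mean and FGF21 the highest.

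Likeness of pattern was measured as the root mean square difference of the 6 log2 ratios, over 19138 probes of named genes that passed the filter in both lines. Nearest to FGF2 were SERPINB1, an inhibitor of neutrophil proteases, at 0.09, OGFRL1 at 0.12 and CASP5, an inflammatory caspase, at 0.12. Nearest to SPRY2 were the homeobox gene DLX2 at 0.20, CXXC4, an inhibitor of Wnt signalling, at 0.35 and the homeobox gene DLX1 at 0.43. DLX2 gave 3.27, 3.52, 3.43 and 3.56 in SKOV3 and 0.72 and 0.39 in A2780s.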

How the data were processed

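Gene expression was read on 6 two-channel Agilent arrays. The authors deposited spot intensities from Agilent Feature Extraction, with mean intensity and median local background for both dyes and no normalization. The log10 ratios of Cy5 to Cy3 were deposited too, in the scanner output and, rounded, as series values. These agree within 0.5% on all 6 arrays and are not turned on dye-swapped arrays. The file headers name version 10.7.3.1 of the software and the submitters' processing notes version 8.5.1.1. The study's text gives thresholds on p and fold and refers elsewhere for normalization and test.

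Background was corrected in limma 3.58.1 (R 4.3.3) by normexp with an offset of 50, fitted without spots flagged for background and without 39 spots of 1 array with a local background over 1000, a choice made after seeing the data. Ratios were normalized by loess, spots of a probe were averaged (1639 control spots and flagged spots left out), ratios were turned to clone over Ctrl, and Aquantile gave channel levels. The dye-swapped ratios of sh-S1 and of sh-S2 were averaged first, and lmFit and eBayes tested the resulting pair against 0, with Benjamini-Hochberg adjustment over 24955 probes. A probe entered if it was well above background in the Ctrl on every array of the line or in a clone on both its arrays. The Ctrl, a single RNA, adds no spread to this test. With 2 clones the SE leans on the variance that eBayes pools over the probes. SPRY1, with an SD of 0.003 between clones, and SPRY4, with 0.21, had SEs of 0.09 and 0.11. Both ways of calling were tried on simulated data with large planted changes, independent noise and no dye effect. Such data do not bear on calls near the thresholds. Precision is limited by signal over background and by how few arrays there are.

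The members and lists were chosen with earlier results of these data known. Genes were named by rule: all members, TGFB1I1, pathway genes called in either line (at most 4 per list and direction) and the 3 genes most like FGF2 and SPRY2. One gene of the pathway lists is not reported here. A gene of several probes was represented in the lists by its brightest probe. Alternatives were the deposited log10 ratios, median centring, normexp on all spots, no filter, each dye orientation, leaving out each clone, and Cy3 levels alone, the last chosen after seeing the data. Probe coordinates are those of the files (hg19).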

Additional observations from a re-analysis of the deposited data

How the results depend on the processing

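The counts of member probes called in SKOV3 stayed within 1.5 times of 3 higher and 1 lower under every alternative, leaving out sh-S1 or sh-S2 included, which gave 3 higher and 1 lower each time on fold alone. With the clone in Cy5 alone 2 were called higher, and SPRY4 had 0.68. Cy3 levels alone, without a test, called 4 higher, with SPRED1 at 1.31. The deposited log10 ratios gave larger sizes, 2.67 for SPRY4, 4.44 for SPRY2, 3.00 for SPRY1 and -2.39 for FGF2. In A2780s the 1 member called higher became 0 with the deposited log10 ratios (SPRY2 at 0.57) and with the clone in Cy3 alone (0.56), and 3 with the clone in Cy5 alone, where SPRY1 had 0.64 and SPRY4 0.63. No member was called lower in A2780s under any alternative. Of 156 values of uncalled member probes, 17 had the other sign under an alternative.

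In the pathway lists, 6 genes called lower in SKOV3 became 13 with the deposited log10 ratios. Averaging the probes of a gene took the 6 called higher there to 4, without HS2ST1 and SHC1. In A2780s 5 genes called higher became 2 with normexp fitted on all spots, and 6 called lower became 11 with the clone in Cy5 alone. Over all probes, SKOV3 calls went from 743 higher and 1038 lower to 1964 and 2355 with the deposited log10 ratios, 1578 lower with median centring, and 1219 higher with the clone in Cy3 alone. In A2780s they went from 994 higher and 403 lower to 693 lower with the deposited log10 ratios, 1795 and 1516 with the clone in Cy5 alone, and 210 lower with the clone in Cy3 alone. The cause was not tested. Each ratio already sets a clone beside its Ctrl within an array. No pairing beyond this was possible because only SKOV3 has more than 1 clone and each clone is set against the same Ctrl RNA. The dim Cy5 channel of the SKOV3 slide limits what the ratios of dim members, SPRY4 and the SPREDs among them, can show.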
